A study of Mus musculus with 6 samples.

Results

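Hyaluronan genes were followed by RNA sequencing in 4T1, a mouse mammary tumour cell line, in cells with Myo1e knocked out (KO) and in wild-type cells (WT). Myo1e encodes myosin 1e, a motor that links membranes to actin. The genes described are Has2, Cd44, Hyal2 and Ugdh, 4 of the 11452 genes in the deposited table, and all 4 passed the filter on low values. Has2 was chosen by its low log2 CPM level in the columns numbered 4, and the other 3 were added as genes of the same pathway. The differences between column numbers are therefore given as a description and carry no test for these 4 genes. KO against WT was not part of the rule for this choice and is tested, although earlier results of these data were known.

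Each genotype had 3 libraries from cell pools, with no treatment or time point in the labels. The sources used here do not give the method of knockout or the origin of the pools, and nothing says whether the pools were separate cultures, so p-values measure the spread between these samples. Columns of both genotypes carry the numbers 1, 2 and 4 while the sample titles count pools 1 to 3, and each library is called by its genotype and the number of its column. What the number 4 stands for is not in the labels. Each genotype has 1 library with it, so a difference by number is not a difference by genotype. Fits by number took KO 4 and WT 4 as separate libraries, although the number 4 occurs 1 time in each genotype. Their SEs and p-values therefore measure no spread between numbers.

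Hyaluronan is a long, unsulphated sugar polymer of the space around cells. Synthases in the plasma membrane build it from UDP-glucuronic acid and UDP-N-acetylglucosamine and extrude it as it grows, receptors such as CD44 bind it at the cell surface, and hyaluronidases cut it. In mammary tumours it is known as a part of the matrix that bears on cell adhesion and migration.

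Reads recovered from the values numbered 17772003 to 19988206 per library. Levels are log2 CPM, read counts scaled to a common library size, with a prior count of 1 added by the authors. Myo1e transcripts were present in every library, at 6.81 to 6.87 log2 CPM for KO and 6.91 to 7.09 for WT, and a whole-gene level does not show whether the protein was altered. Single epithelial markers went both ways in number 4. By limma at an adjusted p under 0.05, 3 were higher and 5 lower, against 31.8% and 33.8% of all genes tested. Of the epithelial markers 9 of 10 were measured, with summed levels of 4482 to 5236 CPM in the libraries numbered 1 and 2 and of 3561 to 3862 CPM in those numbered 4. Fibroblast markers were limited to Pdgfra and Postn, 2 of 10, with sums of 29.9 to 76.8 CPM and 51.5 to 71.0 CPM. Cd68 was the leukocyte marker measured, 1 of 10, at 3.98 to 7.88 CPM and 4.51 to 5.34 CPM, and 0 of 8 endothelial markers were measured. Mitochondrially encoded genes held 0.379% to 0.493% of the reads in the libraries numbered 1 and 2 and 0.309% to 0.343% in those numbered 4. The part of these differences in the results below was not tested.

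Has2 encodes the main hyaluronan synthase of many adherent cells. The gene (ENSMUSG00000022367.7) lies on GRCm38 chromosome 15, from 56665627 to 56694539 on the minus strand. Its level was 7.44, 7.49 and 4.45 log2 CPM for KO 1, 2 and 4, against 7.42, 7.10 and 4.32 for WT 1, 2 and 4. Both libraries numbered 4 were low and the other 4 were high, with no overlap. In reads these are 3372, 3118 and 454 in KO and 3308, 2558 and 373 in WT, so the low libraries still held 373 or more Has2 reads. The library numbered 4 was lower than the mean of numbers 1 and 2 by 8.10-fold in KO, a log2 difference of -3.02, and by 7.69-fold in WT, a log2 difference of -2.94. Libraries 1 and 2 of the same genotype differed by -0.05 in KO and 0.31 in WT (number 1 minus number 2). Of the 11269 genes tested, 10 had a lower value than Has2 for this difference, which describes how the gene was picked.

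Has2os, a noncoding RNA gene on the opposite strand (chromosome 15, 56689944 to 56778399), shares 182 exonic bases with Has2, or 4.30% of the Has2 exons. It was at 1.97, 2.01 and 0.79 log2 CPM for KO 1, 2 and 4, against 1.96, 1.27 and 1.02 for WT 1, 2 and 4, from 35 to 75 reads. It fell by 0.90 in the libraries numbered 4 (SE 0.25, limma adjusted p = 0.010). The libraries came from a stranded kit, but the sources used here do not give the strand setting of the counting, so reads of the shared bases cannot be assigned.

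Cd44 encodes the main cell surface receptor of hyaluronan, and its gene (ENSMUSG00000005087.17) lies on chromosome 2, from 102811141 to 102901665 on the minus strand. It was at 9.44, 9.26 and 8.38 log2 CPM for KO 1, 2 and 4, against 9.28, 9.01 and 8.43 for WT 1, 2 and 4. The libraries numbered 4 were again the lowest of the 6, with no overlap. The log2 difference was -0.97 in KO and -0.72 in WT, or 1.96-fold and 1.64-fold lower. Numbers 1 and 2 differed by 0.18 and 0.26 within a genotype. These are whole-gene levels, which do not tell the standard form of CD44 from its variant forms.

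Hyal2 encodes a hyaluronidase anchored at the cell surface that cuts long hyaluronan, and its gene (ENSMUSG00000010047.12) lies on chromosome 9, from 107567945 to 107572779 on the plus strand. Its level was 6.07, 6.13 and 5.46 log2 CPM for KO 1, 2 and 4, against 6.17, 6.18 and 5.59 for WT 1, 2 and 4. Ugdh encodes the dehydrogenase that makes UDP-glucuronic acid, and its gene (ENSMUSG00000029201.14) lies on chromosome 5, from 65413221 to 65435949 on the minus strand. It was at 7.39, 7.41 and 6.86 log2 CPM for KO 1, 2 and 4, against 7.52, 7.52 and 6.98 for WT 1, 2 and 4. In both genes the libraries numbered 4 were the lowest, without overlap. Hyal2 differed by -0.63 in KO and -0.58 in WT, and Ugdh by -0.55 and -0.54. The genes Gm9917 and Gm43552 overlap Hyal2 and Ugdh, with 0 and 158 shared exonic bases.

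**Figure D1:**
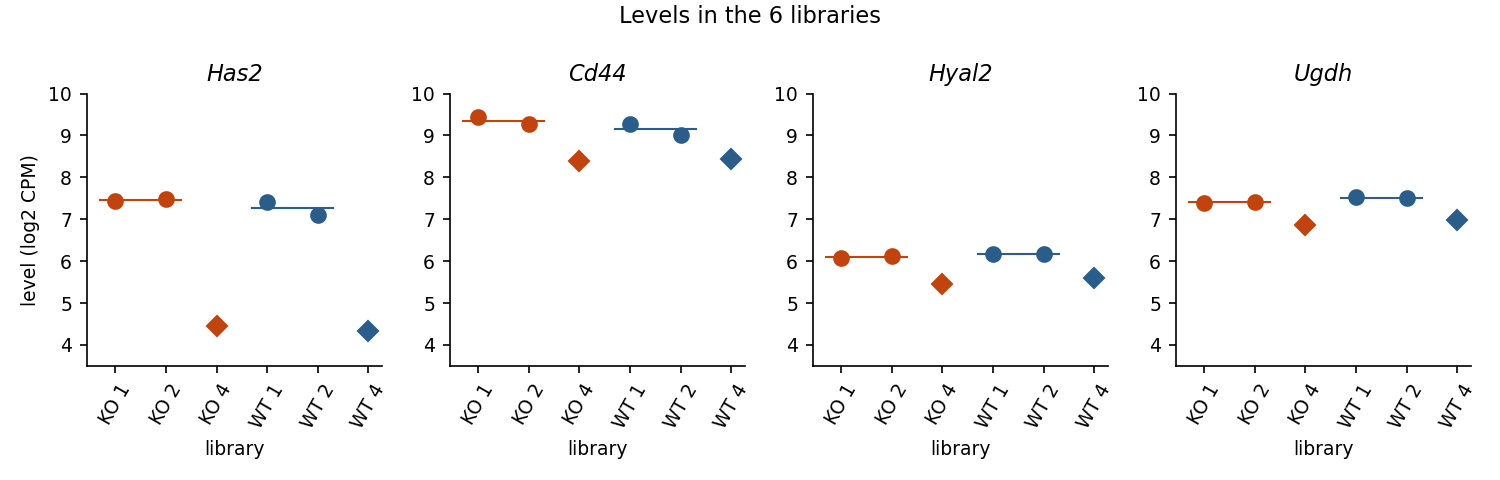
Level in log2 CPM (vertical axis) of Has2, Cd44, Hyal2 and Ugdh in each library, KO in orange and WT in blue, with diamonds for the libraries numbered 4 and a line at the mean of numbers 1 and 2. In every panel both diamonds lie below the 4 circles, by about 3 log2 units for Has2 and by less than 1 for the other genes.

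The 4 genes were thus lower in number 4 by unequal amounts, in the order Has2, Cd44, Hyal2 and Ugdh in each genotype. Among the 11269 genes tested with limma, 65.6% differed in the libraries numbered 4 past an adjusted p of 0.05, 33.8% lower and 31.8% higher, with a median difference of 0.0031. All 4 genes are among those lower, a count that the choice of Has2 used in part and from which nothing is read. The filter drops genes that reach log2 CPM 0 only in the 2 libraries numbered 4, and so mostly genes higher there. Without it limma called 3708 of 11452 genes higher and 3822 lower, against 3588 and 3810 with it. The share of all genes tested whose number 4 libraries lie apart from the rest was not counted. Nothing is therefore read from the lack of overlap, here or for other genes. The share of tested genes with a lower difference was 0.0887% for Has2, 7.32% for Cd44, 13.7% for Hyal2 and 16.2% for Ugdh. In these bulk samples fewer cells of a type and less RNA per cell cannot be told apart.

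Levels of different genes were compared per kilobase of transcript. With the length of the longest principal transcript (GENCODE M21), Cd44 was at 92.1 to 124 CPM per kb in the libraries numbered 1 and 2, Ugdh at 66.0 to 71.9, Has2 at 32.5 to 42.5 and Hyal2 at 32.6 to 35.1. Has2 and Hyal2 overlapped, and the other neighbours in this order did not. In KO 4 and WT 4 the levels were 59.5 and 61.4 CPM per kb for Cd44, 45.5 and 49.4 for Ugdh, 21.4 and 23.3 for Hyal2, and 5.14 and 4.70 for Has2. Has2 was the lowest of the 4 there, without overlap. Its choice by a low level in these libraries enters this order, so nothing is read from it. With the length of all annotated exons instead, Has2 was above Ugdh in the libraries numbered 1 and 2, at 32.5 to 42.5 against 24.9 to 27.2 CPM per kb, and was again the lowest in both libraries numbered 4.

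**Figure D2:**
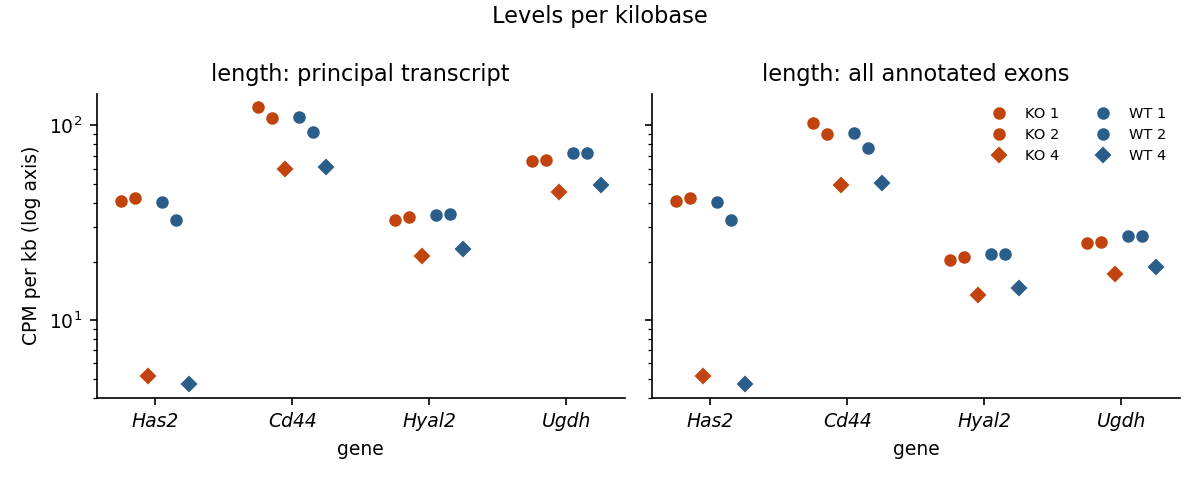
CPM per kilobase (log axis) of the 4 genes in each library, KO in orange and WT in blue, with diamonds for the libraries numbered 4. The left panel divides by the principal transcript and the right panel by all annotated exons, and Has2 in KO 4 and WT 4, at 5.14 and 4.70, is the lowest value in both panels. Has2 was chosen by its low level in these libraries.

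The upstream sequences of 2 of these genes are shown as a description. Only 3 genes, Cd44, Hyal2 and Ugdh, have an entry in the RefSeq promoter table used (GRCm38.p6), and Has2 has none. All 3 are among the 33.8% of genes tested that were lower in number 4 past the threshold. A shared cause was not tested. The stretches below lie before the RefSeq start and hold no base annotated as an exon. They run from chr2:102901666-102901915 (minus strand) for Cd44 and from chr5:65435950-65436092 (minus strand) for Ugdh. Capitals mark matches to GGGCGG, the GC box, or to ACGTG, the core that HIF and other basic helix-loop-helix factors bind. The stretch for Hyal2, of 70 bases, holds no match to either and is not shown.
Cd44: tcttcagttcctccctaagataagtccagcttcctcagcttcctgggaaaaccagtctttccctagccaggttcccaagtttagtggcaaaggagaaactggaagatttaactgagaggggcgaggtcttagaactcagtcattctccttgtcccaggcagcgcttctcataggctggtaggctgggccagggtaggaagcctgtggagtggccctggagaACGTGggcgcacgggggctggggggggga
Ugdh: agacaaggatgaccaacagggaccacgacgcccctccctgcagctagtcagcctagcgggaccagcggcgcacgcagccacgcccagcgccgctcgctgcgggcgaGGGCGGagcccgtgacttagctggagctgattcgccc

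Over the whole windows of 300 bases, searched on both strands, GGGCGG matched 1 time for Cd44, 1 time for Hyal2 and 3 times for Ugdh. Of 32851 RefSeq promoter windows of that length 35.7% hold it. ACGTG matched 1 time for Cd44 and 0 times for the other two, against 19.6% of windows. The CCAAT box matched in 0 of the 3 windows, against 37.4% of all windows. The TATA box, searched as TATAAA, also matched in 0 of the 3, against 13.6%. A STAT motif, searched as TTCNNNGAA, matched in 0 of the 3 as well, against 8.30%. These are descriptions of letters in the window and not of bound sites. The Hyal2 window begins at chr9:107568913 (plus strand), inside the Hyal2 gene as annotated in GENCODE M21. Its matches are therefore not read as those of sequence upstream of the gene.

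The rest of the pathway was read from lists of genes, 76 genes tested besides the 4 above. In the libraries numbered 4, 24 of the 76 were higher past the threshold, or 31.6%, against 31.8% of all genes tested. Another 37 were lower, or 48.7%, against 33.8% of all genes tested. Their median difference was -0.13, against 0.0031. Counts of genes that rose or fell in the single lists below use the same threshold, and genes that did not pass it are in neither count. The shares to set beside each of them are 31.8% higher and 33.8% lower over all genes tested. Genes named below for the largest difference by number were picked on this same contrast, so their SEs and p-values are a description.

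Of the other synthases, Has3 was measured and Has1 was not measured here. Has3 was weakly expressed, at 2.08, 2.23 and -0.29 log2 CPM for KO 1, 2 and 4, against 1.19, 1.67 and -0.42 for WT 1, 2 and 4. It was at 43 to 81 reads in the libraries numbered 1 and 2 and at 16 and 13 reads in KO 4 and WT 4. Like Has2 it was low in both libraries numbered 4, without overlap, with a difference of -2.14. It was below log2 CPM 0 in both, and passed the filter on low values only through the libraries numbered 1 and 2, where it was high, so this difference is given with no test. Has3 was the only 1 of the 80 pathway genes tested that was below log2 CPM 0 in both, or 1.25% against 0.799% of all genes tested. It is among the 37 counted as lower.

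Among the 16 further genes that supply UDP-sugars, 5 rose and 7 fell in the libraries numbered 4. Gnpnat1, which acetylates glucosamine-6-phosphate on the way to UDP-N-acetylglucosamine, rose by 1.49 (SE 0.10, adjusted p = 2.4e-06). It was at 4.55 to 4.82 log2 CPM in the libraries numbered 1 and 2 and at 6.04 and 6.28 in KO 4 and WT 4. Gnpda2 and Gnpda1, isomerases that turn glucosamine-6-phosphate back to fructose-6-phosphate, rose by 1.16 and 0.76 (SE 0.08 and 0.10). The last enzyme of the UDP-N-acetylglucosamine route, Uap1, fell by 0.52 (SE 0.05), close to the value of Ugdh, and was named after its value was seen.

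Of the 4 further receptors 3 rose and 1 fell. Hmmr, which encodes the hyaluronan-binding protein RHAMM that also acts at the mitotic spindle, fell by 0.53 (SE 0.07, adjusted p = 0.00015), from 7.50 to 7.64 log2 CPM in the libraries numbered 1 and 2 to 6.91 and 7.22 in KO 4 and WT 4. The toll-like receptor genes Tlr2 and Tlr4, whose products respond to hyaluronan fragments among other ligands, rose by 0.87 (SE 0.13) and 0.68 (SE 0.09), and the scavenger receptor gene Stab1 by 0.52 (SE 0.11). Cd44 and Hmmr were thus low in the libraries numbered 4 while the other 3 receptors were high.

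Among the 5 further genes of hyaluronan breakdown 3 rose and 2 fell. Gusb, the lysosomal beta-glucuronidase gene, fell by 0.94 (SE 0.05, adjusted p = 7.8e-07), and Cemip2, which encodes a cell surface hyaluronan-degrading protein, fell by 0.47 (SE 0.06). Hyal1, the lysosomal hyaluronidase gene, was weak and rose by 0.93 (SE 0.28, adjusted p = 0.015). Hyal2 and Hyal1, both hyaluronidase genes, thus differed in opposite directions, at -0.61 and 0.93.

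Most matrix proteins that bind hyaluronan, 16 of 18, were not measured here, versican and the link proteins among them. The 2 measured, Habp4 and C1qbp, are mainly intracellular proteins with hyaluronan-binding activity, and they rose by 0.22 (SE 0.07) and fell by 0.16 (SE 0.06).

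Of 16 genes that link, shed or splice CD44, 4 rose and 7 fell. Esrp1, an epithelial splicing factor that favours the variant exons of Cd44, rose by 1.34 (SE 0.06, adjusted p = 2.3e-07), from 6.30 to 6.36 log2 CPM in the libraries numbered 1 and 2 to 7.72 in KO 4 and 7.61 in WT 4. Its paralogue Esrp2 fell by 0.21 (SE 0.07). The cytoskeletal linker genes differed too, with Ank3 (ankyrin G) higher by 0.87 (SE 0.10) and, named after their values were seen, Msn (moesin), Ezr (ezrin) and Rdx (radixin) lower, with differences of -0.68, -0.54 and -0.46 (SE 0.08, 0.08 and 0.05). Spp1, which encodes the CD44 ligand osteopontin, rose by 0.68 (SE 0.15). No transcript-level values were analysed here, so the variant exons were not measured.

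Other glycosaminoglycan chains draw on the same UDP-glucuronic acid. Of 20 such genes 4 rose and 14 fell past the threshold, against 31.8% and 33.8% of all genes tested. The list median was -0.34 against 0.0031 over all genes tested. B4galt7, which adds the first galactose of the linker to core proteins, fell by 0.78 (SE 0.11, adjusted p = 0.00016). Glce and Hs6st1, whose products modify heparan sulphate chains, rose by 1.90 (SE 0.06, adjusted p = 6.9e-08) and 1.34 (SE 0.13, adjusted p = 1.9e-05).

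Of 12 genes described as regulators of Has2, 4 rose and 4 fell. Rela, an NF-kappaB subunit, rose by 0.53 (SE 0.05), and Oga, whose product removes O-GlcNAc from proteins, rose by 0.75 (SE 0.06). The gene of the enzyme that adds this sugar, Ogt, fell by 0.34 (SE 0.07).

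**Figure D3:**
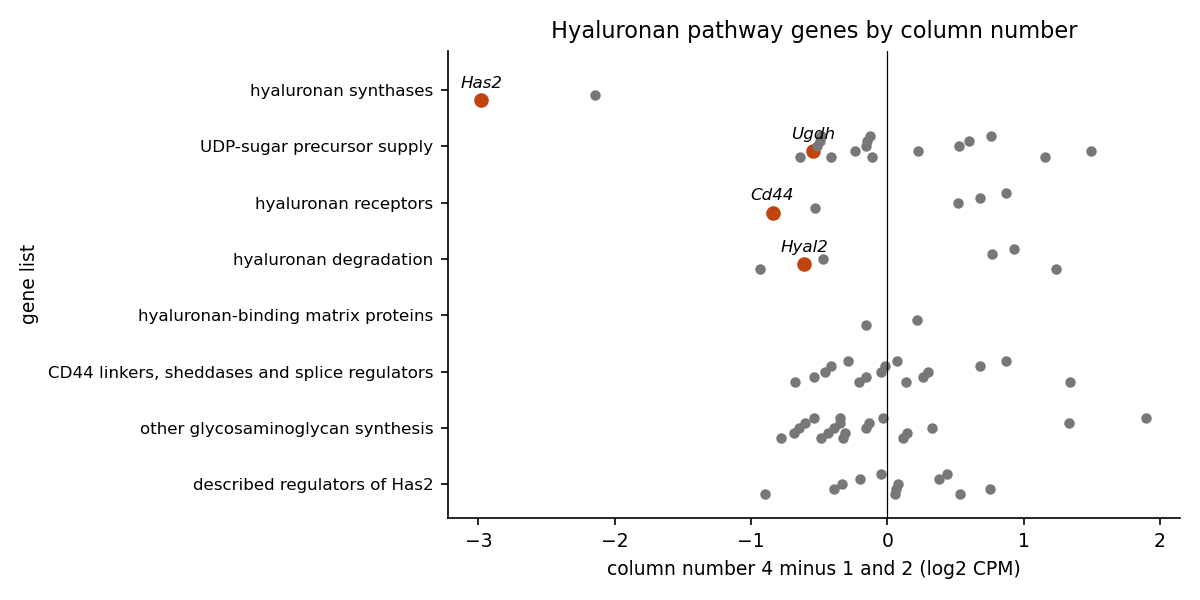
Level in number 4 minus the level in numbers 1 and 2 (log2 CPM, horizontal axis) for each tested gene of the pathway lists (rows), with Has2, Ugdh, Cd44 and Hyal2 in orange and the other genes in grey. Has2 and Has3 (the grey point in its row, -2.14 from the fit) lie below every other gene, and the remaining rows hold genes on both sides of 0.

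Profiles over the 6 libraries were compared by the distance between centred log2 CPM values, where a gene must match both the shape and the size of the differences. Among the genes closest to Has2 were Ccne2 (cyclin E2), Hsd17b7 (an enzyme of cholesterol synthesis), 3110045C21Rik and Acat2 (which makes acetoacetyl-CoA), at distances of 0.31, 0.32, 0.37 and 0.40. Pearson's r with Has2 was 0.996 or more for these 4 over 6 libraries that share the split by number. Closest to Cd44 were Aggf1, Phlda1 and Msmo1, at 0.14 to 0.15. Closest to Hyal2 were Psmb2, Jpt1 and Spag5, at 0.03 to 0.05, and closest to Ugdh were Eno1b, Emc8 and Exosc9, at 0.04 to 0.06.

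KO against WT addressed whether loss of Myo1e went with other transcript levels. None of the 4 hyaluronan genes passed the threshold. Mean levels of KO and WT were 6.46 ± 1.74 and 6.28 ± 1.71 log2 CPM for Has2 (SD, n = 3), 9.03 ± 0.57 and 8.91 ± 0.43 for Cd44, 5.89 ± 0.37 and 5.98 ± 0.34 for Hyal2, and 7.22 ± 0.31 and 7.34 ± 0.31 for Ugdh. These SDs hold the difference between column numbers. The differences were 0.18 (SE 1.14), 0.12 (SE 0.34), -0.09 (SE 0.25) and -0.12 (SE 0.22), each with a limma adjusted p of 0.9999. Limma called 0% of the 11269 genes tested here, with 23 at an unadjusted p under 0.05, and limma voom on the recovered reads called 0, with 24. For Has2 the 95% interval ran from -2.60 to 2.96, which spans both directions. The sign turned for Has2 without KO 1 (-0.31), KO 2 (-0.34) or WT 4 (-0.80), for Cd44 without KO 1 (-0.08) or WT 4 (-0.12), for Hyal2 without KO 4 (0.12), WT 1 (0.0043) or WT 2 (0.01), and for Ugdh without KO 4 (0.07).

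Within column numbers the genotypes lay close together. Has2 differed by 0.02, 0.39 and 0.13 in numbers 1, 2 and 4, higher in KO in 3 of 3, and Ugdh by -0.12, -0.10 and -0.12, lower in 3 of 3. Hyal2 was lower in 3 of 3, by -0.09, -0.05 and -0.12. Cd44 was higher in KO in numbers 1 and 2, by 0.16 and 0.25, and differed by -0.04 in number 4. With the column number as a replicate block the 95% intervals were 0.02 to 0.34 for Has2, -0.02 to 0.26 for Cd44, -0.21 to 0.03 for Hyal2 and -0.22 to -0.01 for Ugdh, and the limma adjusted p-values were 0.45, 0.55, 0.62 and 0.46. As folds, the intervals reach 1.26 for Has2 and 0.858 for Ugdh. This fit called 0.00887% of the genes tested, a single gene, Txnip, which was named after its values were seen and belongs to no list here.

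**Figure D4:**
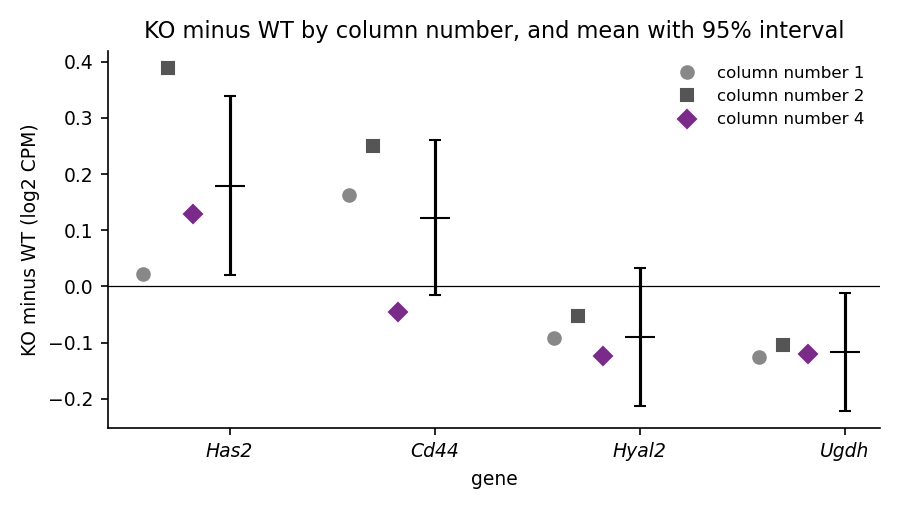
KO minus WT in log2 CPM (vertical axis) for each gene, with a marker for each column number and, in black, the mean over the 3 numbers with its 95% interval from the fit with the replicate block. Has2 is above 0 and Ugdh below 0 in all 3 numbers, and Cd44 has its number 4 marker, at -0.04, below 0.

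The difference between genotypes was compared between number 4 and numbers 1 and 2 with an interaction term. Its value (number 4 minus numbers 1 and 2) was -0.08 (SE 0.18) for Has2, -0.25 (SE 0.17) for Cd44, -0.05 (SE 0.12) for Hyal2 and -0.0050 (SE 0.10) for Ugdh, with limma adjusted p-values of 0.997 to 0.998. For Cd44 the 95% interval was -0.65 to 0.15. Limma called 0% of the genes tested, with 440 at an unadjusted p under 0.05, and limma voom called 0, with 468.

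In the pathway lists 0 of 80 genes, the 4 above included, passed the threshold for KO against WT, with or without the replicate block, and with the block 11 had an unadjusted p under 0.05, or 13.8% against 9.91% of all genes tested. Of the 80, 16 were higher in KO in 3 of 3 column numbers, or 20% against 15.6% of all genes tested. Another 15 were lower in 3 of 3, or 18.8% against 17%. The median difference was -0.0081 against -0.0071 over all genes tested. Has3 was higher in 3 of 3, by 0.89, 0.56 and 0.14 (mean 0.53, SE 0.85). Pgm1, a phosphoglucomutase gene, was lower in 3 of 3, by -0.45, -0.21 and -0.15 (mean -0.27, SE 0.15), and Ugp2, which makes the UDP-glucose that UGDH uses, by -0.11, -0.31 and -0.10 (mean -0.17, SE 0.11). Tlr2 was lower by -0.47, -0.74 and -0.07 (mean -0.43, SE 0.37).

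Mmp9, the gene of a gelatinase that can dock on CD44, was at 7.30, 7.07 and 7.78 log2 CPM for KO 1, 2 and 4, against 7.69, 7.90 and 7.79 for WT 1, 2 and 4. KO 4 was close to the WT libraries and KO 1 and KO 2 were lower (mean difference -0.41, SE 0.19, limma adjusted p = 0.9999). Ogt differed by 0.17 (SE 0.16) and Csgalnact1, a chondroitin-initiating enzyme gene, by 0.22 (SE 0.17). None of these passed the test.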

How the data were processed

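Tools named in the submitters' processing notes are edgeR, featureCounts (Subread 1.6.4), STAR 2.7.3a and Trimmomatic 0.39, with build GRCm38. The authors deposited log2 CPM values. The sources used here do not give the strand setting, the annotation or the normalization. Every deposited gene reaches log2 CPM 0 in at least 2 libraries. Once the prior was taken off, 100% of the linear values were whole multiples of 1 step per library, within a tolerance of 0.01, which gives reads and effective library sizes. The effective size over the summed reads was 0.971 to 0.981 in the libraries numbered 1 and 2. It was 1.065 in KO 4 and 1.041 in WT 4, so the scaling differed along the column number. No 2 libraries agreed within sampling noise (chi-square per degree of freedom of 4.89 or more).

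KO was compared with WT with limma 3.58.1 in R 4.3.3 on log2 CPM, with a mean-variance trend, two-sided, and Benjamini-Hochberg adjustment over the 11269 genes that reached log2 CPM 0 in at least 3 of 6 libraries. The fits for the column number and the interaction used the same genes. An exact permutation test of 3 against 3 cannot give a p under 0.1. Same-numbered KO and WT deviations from the genotype mean correlated at 0.744, 0.784 and 0.921 for numbers 1, 2 and 4 across genes. Across numbers, r of these deviations was 0.687 between KO 1 and WT 2 and 0.617 between KO 2 and WT 1. The split of number 4 enters all of these values. Without number 4, KO 1 minus KO 2 correlated with WT 1 minus WT 2 at 0.256. The main fit took no pairs. The replicate block and the differences within column numbers took the numbers as pairs, from the data and not from a label. The main fit, the fit with the replicate block and the fit for the column number were run on simulated data with known changes. The check there was on the median estimate, and no rate of recovery or of false calls is reported here. The interaction, the term for number 4 and limma voom were not simulated.

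Named besides the 4 genes are, from each pathway list, up to 3 genes with the smallest p for KO against WT and up to 3 with the largest difference by number, and the closest profiles. Some genes that this rule names are not reported here. The genes and lists were chosen with earlier results of these data known. Gene models are from GENCODE M21 and promoters from RefSeq. Alternatives were other filters, pseudocounts, scalings and variance models, limma voom on the recovered reads with the effective library sizes, the replicate block, a term for number 4, numbers 1 and 2 only, and leaving out each library.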

Additional observations from a re-analysis of the deposited data

How the results depend on the processing

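The lower levels of Has2, Cd44, Hyal2 and Ugdh in the libraries numbered 4 kept their direction in all 11 alternatives other than leaving out a library, with ranges of -3.02 to -2.92, -0.97 to -0.70, -0.63 to -0.58 and -0.57 to -0.43, and in each of the 6 fits without 1 library. Other filters and limma variance models cannot change these differences, and the values within KO or WT only are parts of the main one. Has2 was picked on this contrast, so the count of alternatives is a description. Ugdh moved by more than the residual spread with median centring (-0.57) and quantile normalization (-0.43), and the cause was not tested. With quantile normalization the interaction of Ugdh was 0.016, against -0.0050. Limma called 0 genes for KO against WT in 11 of 13 alternatives and 1 with the replicate block, and also 1 with limma voom and the replicate block together, a choice made after seeing the data. The block changed no other call. In numbers 1 and 2 only, KO minus WT was 0.21 for Has2 and 0.21 for Cd44 (adjusted p = 0.78 each), and 0 of the 80 pathway genes passed, with 7 at an unadjusted p under 0.05, or 8.75% against 6.71% of all genes tested.

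Leaving out 1 library leaves the numbers in unequal shares of the genotypes, so KO minus WT moved by construction. It ranged from -0.80 to 1.19 for Has2, -0.12 to 0.44 for Cd44, -0.28 to 0.12 for Hyal2 and -0.30 to 0.07 for Ugdh. The direction turned for Has2 without KO 1 (-0.31), KO 2 (-0.34) or WT 4 (-0.80), for Cd44 without KO 1 (-0.08) or WT 4 (-0.12), for Hyal2 without KO 4 (0.12), WT 1 (0.0043) or WT 2 (0.01), and for Ugdh without KO 4 (0.065), and no gene passed in any of these fits. Genes called by number ranged from 5592 to 7495 there. With 13 to 81 reads, Has3 carries the largest counting error of the synthases.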
